A study of Mus musculus with 27 samples.

Results

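Dexamethasone, a synthetic glucocorticoid, was compared with vehicle in bone marrow-derived macrophages that lack GRIP1, a coregulator of the glucocorticoid receptor. The comparison holds 8 of the study's 27 RNA-seq libraries, chosen by genotype and treatment labels: 4 of knockout cells given 100 nM dexamethasone for 24 h and 4 of knockout cells given vehicle. Both groups are C57BL/6, LysM-Cre+/+; GRIP1fl/fl. Set beside them are 3 dexamethasone and 3 vehicle libraries of C57BL/6, LysM-Cre+/+ ; GRIP1wt/wt cells, called wild type here, so all these groups carry Cre. LysM-Cre is expressed from the Lyz2 locus in myeloid cells, and deletion depends on how many cells recombined. Marrow of male mice of 8 to 10 weeks was cultured for 5 days in medium holding 10% supernatant of L cells and 20% serum before treatment. The labels do not say whether libraries came from separate animals, so the p-values below measure only the spread between libraries. That spread was estimated over all 27 libraries of the study. The knockout libraries held 22090032 to 32384059 counted reads with dexamethasone and 24745146 to 48023102 with vehicle.

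The glucocorticoid receptor is a ligand-activated transcription factor. Bound by hormone, it enters the nucleus and raises genes from palindromic DNA elements, while many inflammatory genes served by AP-1 and NF-kB are lowered. GRIP1, the product of Ncoa2, belongs to the p160 coregulators with the products of Ncoa1 and Ncoa3, and it is known to act with the receptor as a coactivator and, at some inflammatory genes, as a corepressor. In macrophages glucocorticoids are known for lowering cytokines and raising scavenger and phagocytic receptors.

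Levels are CPM, a gene's reads scaled to the size of its library, given in the order of replicates 1 to 4. Differences are log2 fold changes of dexamethasone over vehicle. Each is given with an approximate standard error, its absolute value divided by the square root of the F statistic of its test. Called genes are those with an adjusted p below 0.05. Ncoa2 stood at 18.9, 24.9, 18.9 and 25.8 CPM with dexamethasone, against 19.0, 16.1, 16.6 and 22.2 CPM with vehicle in knockout cells. Wild-type cells held 76.4, 93.4 and 89.2 CPM with dexamethasone, against 55.7, 71.4 and 72.0 CPM with vehicle, so each of the 8 knockout libraries lay below every wild-type library. The count covers the whole gene, so reads from parts outside the deletion are included. Within knockout cells Ncoa2 was not called (log2 fold change 0.26 ± 0.14, adjusted p = 0.223), and neither were its relatives Ncoa1 (0.15 ± 0.10, adjusted p = 0.357) and Ncoa3 (-0.09 ± 0.10, adjusted p = 0.61). Nr3c1, which encodes the receptor, averaged 88.6 ± 3.89 CPM with dexamethasone, against 98.9 ± 10.9 CPM with vehicle (SD, n = 4 each) and was not called (-0.16 ± 0.09, adjusted p = 0.247).

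The knockout libraries differed among themselves in genes that IL4 raises. Arg1, the arginase of alternatively activated macrophages, stood at 0.277, 68.0, 0.820 and 12.2 CPM with dexamethasone, against 2.63, 117, 78.4 and 4.27 CPM with vehicle, although none of these cells was given IL4. Dexamethasone library 2 and vehicle libraries 2 and 3 were the highest of their groups, and dexamethasone library 4 was intermediate. The 3 knockout libraries that did receive IL4 held 571, 742 and 491 CPM.

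Mgl2, a galactose-binding lectin of the same programme, stood at 0.0924, 6.45, 0.107 and 2.49 CPM with dexamethasone, against 1.86, 36.5, 27.8 and 3.71 CPM with vehicle, with the same libraries highest. Retnla, a secreted protein also induced by IL4, was at 0.0462, 0.590, 0 and 0.0622 CPM with dexamethasone, against 0, 6.06, 1.42 and 0 CPM with vehicle. The 34 genes of a list of IL4 and alternative activation genes, 33 of them tested, had a median of 2.19, 12.6, 2.32 and 6.12 CPM in the dexamethasone libraries, against 5.21, 34.4, 21.2 and 6.06 CPM in the vehicle libraries. The knockout IL4 libraries had medians of 95, 98.1 and 79.7 CPM. What set these libraries apart was not tested. Most counts that lead a paragraph are therefore also given without the 4 libraries high in Arg1. These are knockout dexamethasone 2, knockout vehicle 2 and 3, and wild-type dexamethasone 1. Knockout dexamethasone libraries 1, 3 and 4 then stand against knockout vehicle libraries 1 and 4. Dexamethasone library 4, intermediate in Arg1, is kept, so this smaller comparison is not free of differences in Arg1.

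**Figure D1:**
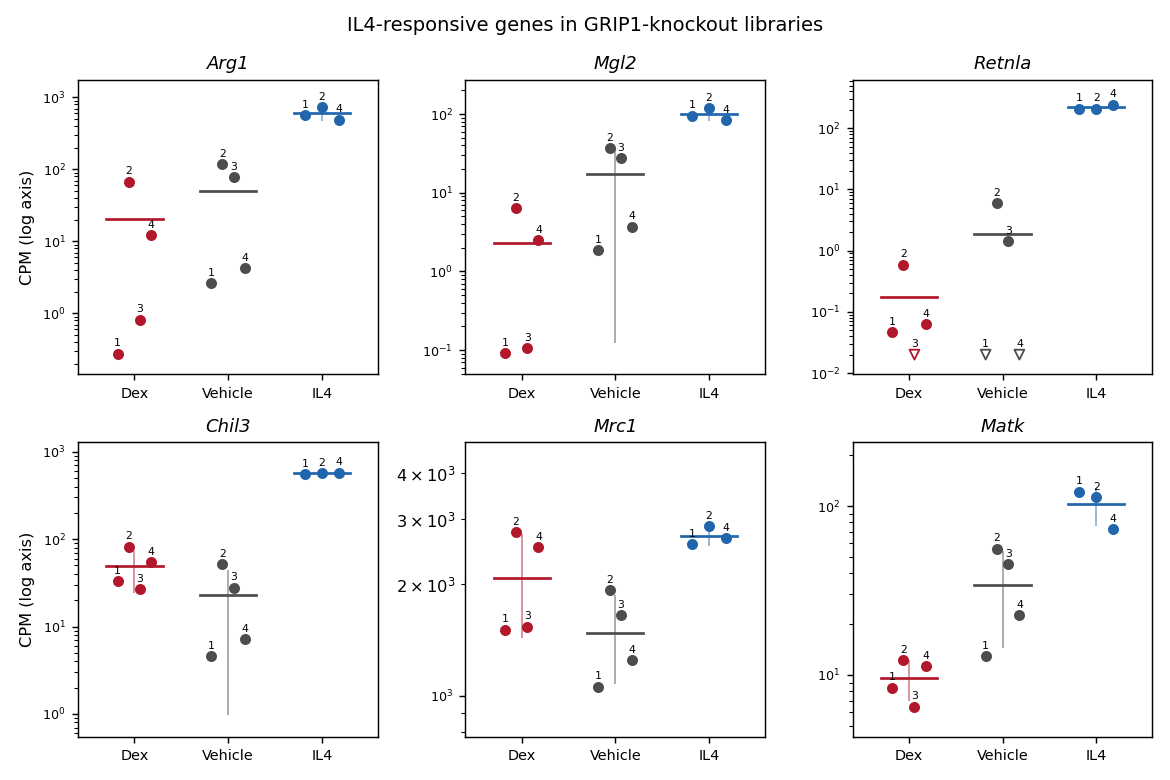
Level of 6 IL4-responsive genes in each knockout library, in CPM on log axes, with dexamethasone left, vehicle next and IL4 right. Digits are replicate numbers, horizontal lines are means, vertical lines are 1 SD where the mean exceeds it, and open triangles mark libraries with 0 counts; Arg1 is high in dexamethasone library 2 (68.0 CPM) and in vehicle libraries 2 and 3 (117 and 78.4 CPM).

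Dexamethasone changed 2684 of the 14589 genes tested in knockout cells (18.4%). Of these, 1328 rose (9.10% of genes tested) and 1356 fell (9.29%), and 2545 are annotated as protein-coding. The change was at least 2-fold in 551 genes, of which 210 rose and 341 fell, and at least 8-fold in 20 that rose and 24 that fell. The libraries of the groups did not overlap at 2889 genes (19.8%), dexamethasone being higher at 1512 (10.4%) and lower at 1377 (9.44%), and 2119 of the called genes were among them. Without the 4 libraries high in Arg1, 1789 of 14777 genes were called (12.1%), 822 higher (5.56%) and 967 lower (6.54%). That smaller comparison kept 1607 of the 2684 calls (59.9%), and 424 of the 551 calls of at least 2-fold. With any 1 of the 8 knockout libraries left out in turn, 1677 of the 2684 genes (62.5%) were called every time.

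**Figure D2:**
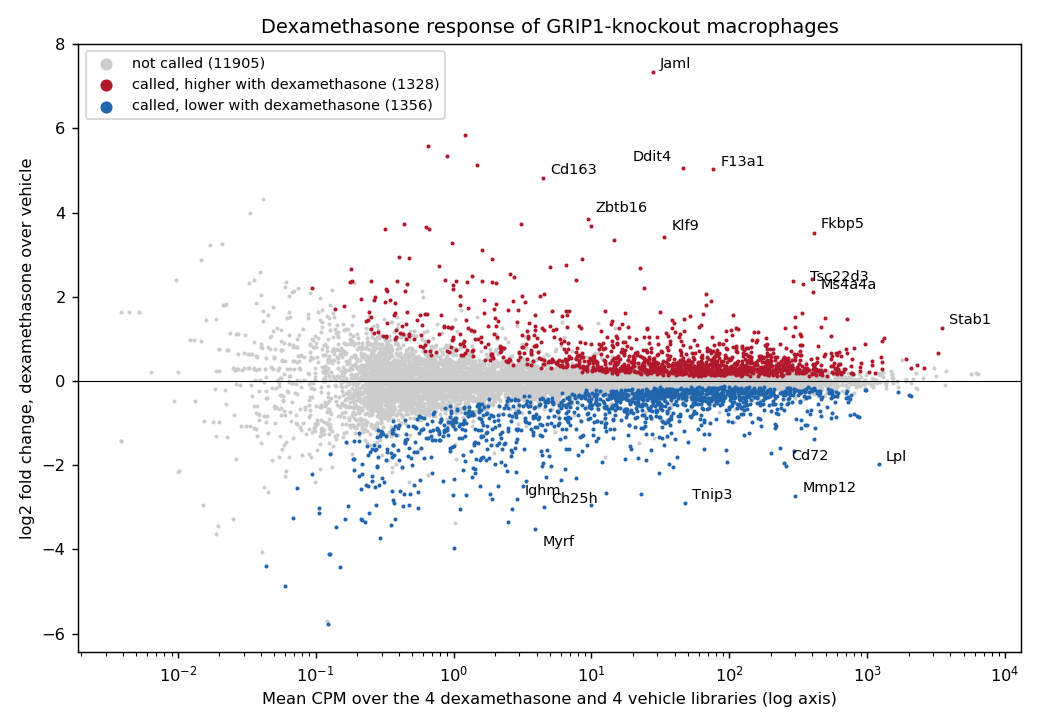
Each tested gene's log2 fold change, dexamethasone over vehicle in knockout cells, against its mean CPM over the 8 libraries on a log axis. The 1328 genes called higher are red and the 1356 called lower are blue; Jaml lies highest at 7.35, and Myrf is the lowest of the labelled genes at -3.52.

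Among genes whose groups did not overlap and whose higher group averaged 5 CPM or more, the largest rise was that of Jaml, a junctional adhesion molecule of leukocytes (chromosome 9, 45079183 to 45108534, GRCm38). Jaml held 68.3, 39.9, 57.0 and 56.1 CPM with dexamethasone, against 0.194, 0.246, 0.439 and 0.374 CPM with vehicle (log2 fold change 7.35 ± 0.28, adjusted p = 2.65e-15). It was barely detected in each vehicle library and well expressed in each dexamethasone library. Ddit4, an inhibitor of mTORC1 signalling, held 127, 34.5, 103 and 93.3 CPM with dexamethasone, against 2.67, 2.58, 2.42 and 3.08 CPM with vehicle (5.06 ± 0.41, adjusted p = 9.35e-09). F13a1, the A subunit of coagulation factor XIII, held 182, 76.9, 221 and 109 CPM with dexamethasone, against 6.66, 2.95, 3.47 and 5.20 CPM with vehicle (5.03 ± 0.42, adjusted p = 2.03e-08). Both genes were lowest of the dexamethasone group in library 2, which lay above every vehicle library, as the limit on overlap required.

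Cd163, the scavenger receptor for haemoglobin-haptoglobin complexes, was at 9.74, 7.84, 10.3 and 6.65 CPM with dexamethasone, against 0.310, 0.246, 0.339 and 0.281 CPM with vehicle (4.82 ± 0.26, adjusted p = 1.56e-12). Zbtb16, a zinc finger transcription factor and classical receptor target, was at 17.2, 14.8, 19.9 and 18.4 CPM with dexamethasone, against 1.55, 0.860, 1.12 and 1.37 CPM with vehicle (3.84 ± 0.21, adjusted p = 1.57e-12). For both genes the groups lay far apart and were tight within. The remaining largest rises were Pik3ip1 (3.73 ± 0.23), an inhibitor of PI3 kinase, Adamtsl4 (3.68 ± 0.25), an extracellular matrix protein, Fkbp5 (3.51 ± 0.09), Klf9 (3.42 ± 0.12), the serine protease gene Prss16 (3.35 ± 0.33), the small GTPase gene Rab15 (2.90 ± 0.52) and Adam22 (2.71 ± 0.17). Rab15 varied most, at 6.19, 25.5, 7.70 and 20.9 CPM with dexamethasone, against 0.813, 3.15, 3.11 and 0.841 CPM with vehicle. Without the 4 libraries high in Arg1 it was at 3.81, adjusted p = 8.38e-06, a comparison that keeps dexamethasone library 4 (20.9 CPM) but not vehicle libraries 2 and 3.

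The falls are named by the same limits of overlap and level. Tnip3, which encodes a ubiquitin-binding inhibitor of NF-kB signalling, was at 11.1, 11.1, 12 and 11.1 CPM with dexamethasone, against 101, 73.9, 75.5 and 86.0 CPM with vehicle (-2.89 ± 0.11, adjusted p = 1.57e-15). Mmp12, the macrophage elastase, was at 50.0, 130.1, 43.7 and 92.5 CPM with dexamethasone, against 341, 769.9, 609.8 and 366 CPM with vehicle (-2.72 ± 0.39, adjusted p = 2.81e-05). Within each group Mmp12 was highest in the libraries high in Arg1. Myrf, a membrane-bound transcription factor best known from oligodendrocytes, had the largest fall within those limits, to 0.369, 0.885, 0.606 and 0.622 CPM with dexamethasone, against 2.44, 13.6, 9.0 and 3.86 CPM with vehicle (-3.52 ± 0.43, adjusted p = 3.32e-06). Its values followed the same libraries, and without the 4 its log2 fold change was -2.54, adjusted p = 4.22e-07.

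Ch25h, the cholesterol 25-hydroxylase, fell to 0.739, 1.98, 0.606 and 0.777 CPM with dexamethasone, against 5.85, 12.3, 9.04 and 4.89 CPM with vehicle (-2.98 ± 0.34, adjusted p = 8.58e-07). Dio2, which activates thyroid hormone, fell to 2.91, 2.82, 2.0 and 2.61 CPM with dexamethasone, against 12.5, 14.1, 11.2 and 13.4 CPM with vehicle (-2.31 ± 0.21, adjusted p = 1.36e-08). Groups that do not overlap were a condition for naming these genes. The other largest falls were Ighm (-2.79 ± 0.34), the immunoglobulin mu heavy chain, Plxdc2 (-2.65 ± 0.42), the SLAM family receptor gene Slamf8 (-2.50 ± 0.26), the serine protease gene Prss46 (-2.38 ± 0.28), the intermediate filament gene Nes (-2.34 ± 0.32), Mamdc2 (-2.27 ± 0.29) and the Src family kinase gene Fgr (-2.18 ± 0.18). Plxdc2 was at 2.31, 5.90, 1.68 and 4.17 CPM with dexamethasone, against 8.02, 32.7, 32.7 and 14.4 CPM with vehicle, again highest in the libraries high in Arg1, and at -2.03, adjusted p = 0.00046 without the 4.

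**Figure D3:**
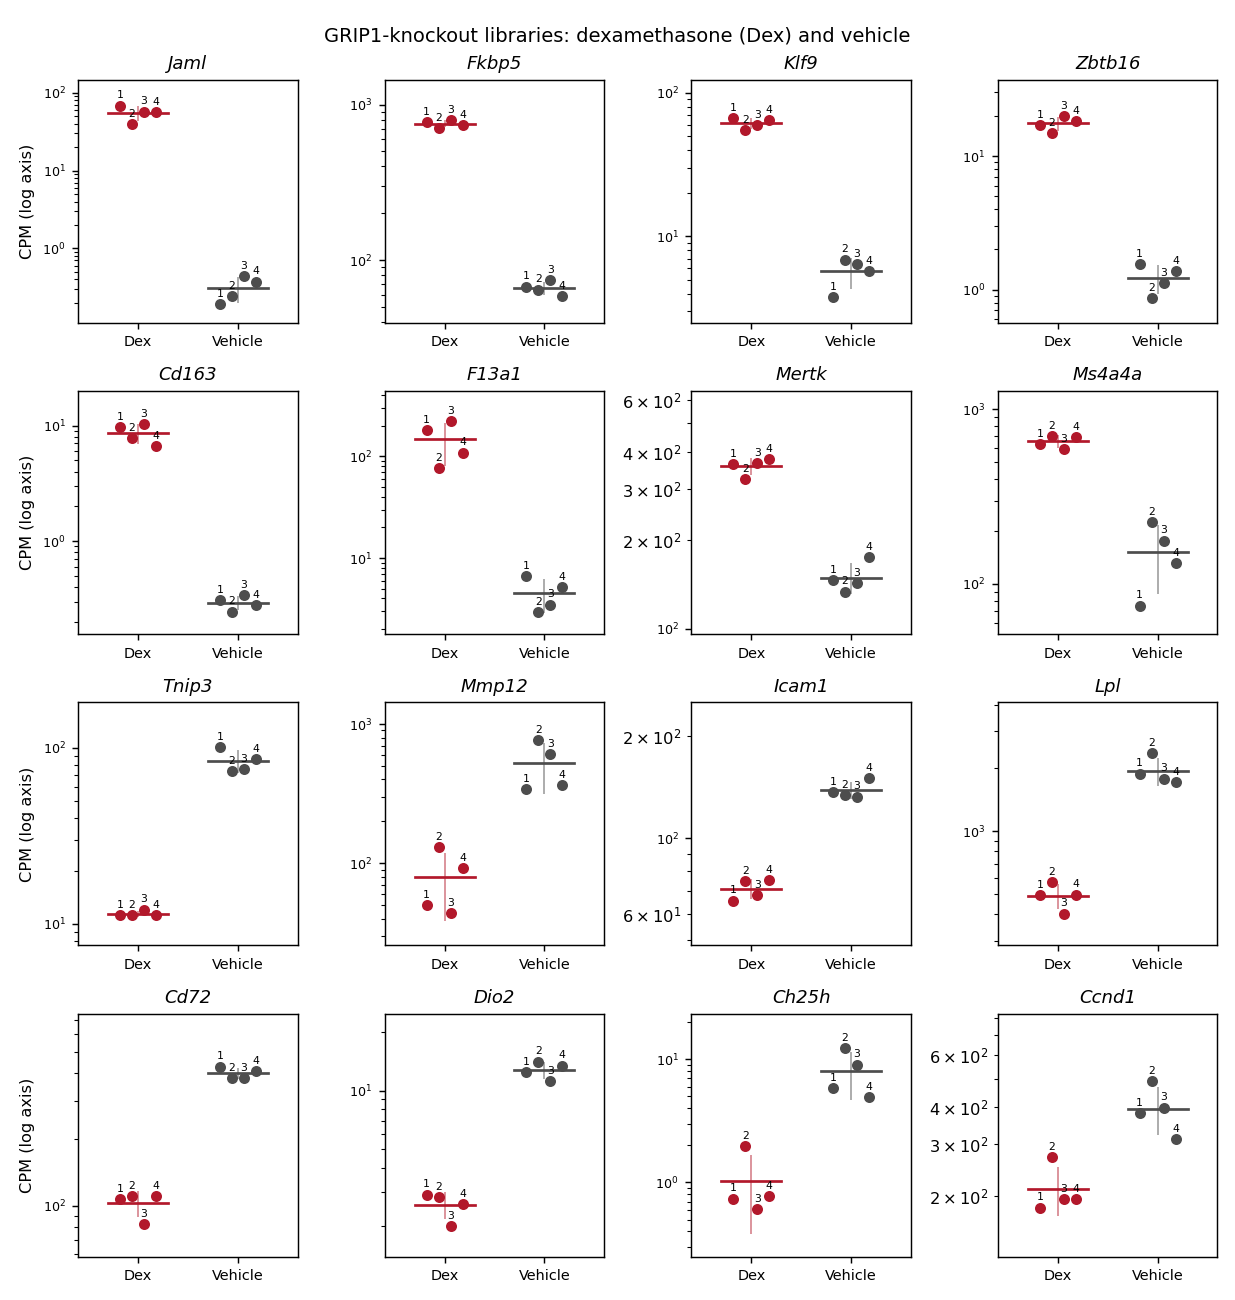
Level of 16 genes in each knockout library, in CPM on log axes, with dexamethasone left and vehicle right. Digits are replicate numbers, horizontal lines are means and vertical lines 1 SD (n = 4 each). The groups overlap in none of the 16 panels, but genes of the largest rises and falls were chosen for not overlapping. The gap is widest for Jaml (39.9 to 68.3 CPM with dexamethasone, 0.194 to 0.439 CPM with vehicle).

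Promoter windows from 250 bases before to 50 after each RefSeq start site (GRCm38.p6) were searched on both strands for 3 motifs: GNACA followed by any 3 bases and TGTNC, the palindrome of the receptor's element, TGANTCA, the AP-1 site, and GGGA followed by any 2 bases and TTCC, an NF-kB site. A promoter was found for 10614 of the tested genes. The palindrome lay in 3 of 185 promoters of genes that rose at least 2-fold (1.62%) and in 4 of 314 promoters of genes that fell at least 2-fold (1.27%), against 0.311% of the 13517 promoters of tested genes and 0.475% of all 32851 promoters in the table. The AP-1 motif lay in 9.73% of the promoters of genes that rose at least 2-fold and in 9.87% of those of genes that fell, against 5.55% of those of tested genes and 7.81% of all. Over all called genes, whatever the size of the change, the AP-1 motif lay in 6.72% of promoters of genes that rose and 6.83% of those that fell, and the palindrome in 0.443% and 0.359%. The NF-kB motif lay in 2.16% of the promoters of genes that rose at least 2-fold and 2.55% of those that fell, against 1.52% of those of tested genes and 1.47% of all. A match describes letters and is not a binding site. The windows below are of the largest rise and of a pair of the largest falls, shown because each holds an AP-1 or NF-kB motif, which stands in capitals; they run 5′ to 3′ on the gene's strand.
Jaml, chr9:45078933-45079232, plus strand, NF-kB motif 48 bases before the start site: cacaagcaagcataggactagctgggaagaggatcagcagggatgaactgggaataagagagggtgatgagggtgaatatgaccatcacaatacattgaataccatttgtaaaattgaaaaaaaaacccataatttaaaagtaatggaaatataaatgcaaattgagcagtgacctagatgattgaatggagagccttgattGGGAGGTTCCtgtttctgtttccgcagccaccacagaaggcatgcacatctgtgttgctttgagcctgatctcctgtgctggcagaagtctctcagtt
Mmp12, chr9:7347124-7347423, plus strand, AP-1 motif 44 bases before the start site: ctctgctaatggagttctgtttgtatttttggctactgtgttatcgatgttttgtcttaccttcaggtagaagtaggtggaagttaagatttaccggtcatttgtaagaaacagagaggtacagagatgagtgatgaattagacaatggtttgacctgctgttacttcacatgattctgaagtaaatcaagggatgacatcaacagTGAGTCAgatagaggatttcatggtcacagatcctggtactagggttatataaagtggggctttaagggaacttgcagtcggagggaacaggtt
Slamf8, chr1:172590519-172590818, minus strand, an AP-1 and then an NF-kB motif, both after the start site: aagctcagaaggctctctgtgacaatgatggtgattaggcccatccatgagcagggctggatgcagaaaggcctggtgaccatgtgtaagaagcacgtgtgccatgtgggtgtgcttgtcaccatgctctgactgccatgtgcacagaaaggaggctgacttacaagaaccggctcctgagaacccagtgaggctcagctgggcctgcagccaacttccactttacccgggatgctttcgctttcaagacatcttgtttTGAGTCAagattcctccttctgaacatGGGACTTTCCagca

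Of 35 tested genes listed as known glucocorticoid receptor targets, 15 rose and 6 fell, with a median log2 fold change of 0.43 against -0.0018 over all genes tested. The list was chosen with earlier results of these data known, so these numbers describe it and are no independent test. Without the libraries high in Arg1, 14 rose and 6 fell. Over all genes tested 9.10% rose and 9.29% fell, the shares to set beside the counts of this list and those below. Fkbp5, a co-chaperone that restrains the receptor itself, stood at 774, 705, 792 and 739 CPM with dexamethasone, against 67.5, 64.6, 74.2 and 58.6 CPM with vehicle (3.51 ± 0.09, adjusted p = 8.41e-19). Tsc22d3, which encodes the anti-inflammatory leucine zipper protein GILZ, stood at 590.2, 533, 556 and 582 CPM with dexamethasone, against 94.9, 130.1, 116 and 119 CPM with vehicle (2.30 ± 0.11, adjusted p = 1.28e-13). No library of either group stood apart for these classical targets. Members that fell were Rgs2 (-0.86 ± 0.09), a regulator of G protein signalling, the annexin gene Anxa1 (-0.76 ± 0.09), the cyclin-dependent kinase inhibitor gene Cdkn1c (-1.86 ± 0.31), the clock gene Per2 (-1.02 ± 0.19), the lipase inhibitor gene Angptl4 (-1.22 ± 0.22) and the repressor gene Bcl6 (-0.53 ± 0.10).

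Apart from Fkbp5, genes of the receptor and its chaperones moved by less than 2-fold. Of 17 tested, 3 rose and 2 fell, or 1 fell without dexamethasone library 3 or 4 or vehicle library 1 or 2. The numbers were 2 that rose and 2 that fell without the 4 libraries high in Arg1. Hsp90b1, a chaperone of the endoplasmic reticulum, averaged 1231 ± 121 CPM with dexamethasone, against 938 ± 82.4 CPM with vehicle (SD, n = 4 each, 0.39 ± 0.06, adjusted p = 3.16e-05). Abcb1b, an efflux pump that can export glucocorticoids, fell (-0.31 ± 0.07, adjusted p = 0.00284). Of 22 nuclear receptor coregulators, none rose and 2 fell, with 1 fall without dexamethasone library 1 or 3 or vehicle library 2 or 3 and none without the 4 libraries high in Arg1. The arginine methyltransferase gene Prmt1 was at -0.41 ± 0.09, adjusted p = 0.0025, and at -0.33, adjusted p = 0.0544 without those 4.

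Proinflammatory and NF-kB genes fell in 15 of 32 tested and rose in 2, with a median log2 fold change of -0.57. Without the libraries high in Arg1, 16 fell and 1 rose, and 1 also rose without dexamethasone library 1 or vehicle library 3. Icam1, an adhesion molecule, held 65.5, 74.7, 68.2 and 75.2 CPM with dexamethasone, against 137, 134, 133 and 151 CPM with vehicle (-0.97 ± 0.06, adjusted p = 1.35e-11). Cd40, a costimulatory receptor, fell to 0.785, 2.82, 1.35 and 2.39 CPM with dexamethasone, against 4.11, 10.3, 9.0 and 5.11 CPM with vehicle (-1.94 ± 0.27, adjusted p = 1.18e-05). Neither gene's groups overlapped, and Cd40 was higher in the libraries high in Arg1. The NF-kB subunit gene Nfkb1 (-0.37 ± 0.06) and Hcar2 (-1.60 ± 0.29), a receptor for nicotinic acid and ketone bodies, fell as well.

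The labels name no inflammatory stimulus for these cells, and cytokine genes were mostly low. Il1b was at 0.739, 0.506, 0.642 and 0.280 CPM with dexamethasone, against 1.63, 1.48, 1.20 and 2.90 CPM with vehicle (-1.75 ± 0.34, adjusted p = 0.000573). Cxcl10, an interferon-induced chemokine, was at 0.323, 0.632, 0.464 and 0.404 CPM with dexamethasone, against 4.11, 1.64, 0.898 and 2.37 CPM with vehicle (-2.27 ± 0.43, adjusted p = 0.000497). Tnf held 55.0, 41.8, 58.1 and 42.2 CPM with dexamethasone, against 105, 57.7, 61.5 and 86.1 CPM with vehicle, and its groups overlapped (-0.65 ± 0.17, adjusted p = 0.00861). The Tnf call was lost with only the compared groups in the fit (adjusted p = 0.0675). Without the 4 libraries high in Arg1, Cxcl10 was at -3.0, adjusted p = 5.37e-05.

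Genes that restrain inflammation did not share a direction. Of 28 tested MAPK brakes and anti-inflammatory genes, 6 rose and 9 fell, and 4 rose and 10 fell without the libraries high in Arg1. Beside Tsc22d3, the ERK phosphatase gene Dusp6 rose and averaged 243 ± 29.9 CPM with dexamethasone, against 132 ± 3.51 CPM with vehicle (SD, n = 4 each, 0.88 ± 0.10, adjusted p = 2.96e-07). Anxa1, whose product annexin A1 is a known mediator of glucocorticoid action, held 438, 438, 391 and 376 CPM with dexamethasone, against 691, 819, 629.5 and 642 CPM with vehicle (-0.76 ± 0.09, adjusted p = 7.82e-07). Il10, an anti-inflammatory cytokine, held 2.17, 2.61, 2.53 and 1.65 CPM with dexamethasone, against 5.27, 3.81, 3.93 and 4.18 CPM with vehicle (-0.94 ± 0.15, adjusted p = 5.82e-05). Il1rn, the IL1 receptor antagonist, held 15.9, 22.3, 14.6 and 21.4 CPM with dexamethasone, against 61.4, 72.1, 61.5 and 62.6 CPM with vehicle (-1.80 ± 0.35, adjusted p = 0.000845). All 3 fell, and the groups did not overlap for any of these 4 genes.

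Interferon-stimulated genes fell in 11 of 38 tested and rose in 2, with a median log2 fold change of -0.41, and the count rested on single libraries. The number that fell was 18 without vehicle library 3, 5 without vehicle library 4, 7 without dexamethasone library 3 and 21 without the 4 libraries high in Arg1. Ifit3, an antiviral effector, was at 1.11, 0.716, 0.784 and 1.03 CPM with dexamethasone, against 4.76, 2.21, 0.878 and 6.14 CPM with vehicle (-1.93 ± 0.44, adjusted p = 0.0029). With only the compared groups in the fit it was not called (adjusted p = 0.053). Vehicle libraries 1 and 4, which were low in Arg1, were the highest for Ifit3, and vehicle library 3 lay within the dexamethasone values. The DNA sensor family gene Ifi204 rose and averaged 109 ± 4.97 CPM with dexamethasone, against 58.7 ± 7.65 CPM with vehicle (SD, n = 4 each, 0.89 ± 0.10, adjusted p = 4.75e-07), and so did the guanylate-binding protein gene Gbp7 (1.04 ± 0.14, adjusted p = 9.31e-06).

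Toll-like receptors, their adaptors and related sensors rose in 7 of 26 tested and fell in 3. Tlr7, a sensor of single-stranded RNA, held 594, 623, 682 and 729 CPM with dexamethasone, against 262, 243, 265 and 309 CPM with vehicle (1.28 ± 0.12, adjusted p = 2.15e-08). Tlr5, the flagellin receptor, was low but also higher, at 3.56, 2.49, 4.31 and 3.17 CPM with dexamethasone, against 1.01, 0.246, 0.479 and 0.966 CPM with vehicle (2.33 ± 0.38, adjusted p = 9.22e-05). Neither overlapped between groups. Tlr13, a sensor of bacterial ribosomal RNA, rose by less (0.44 ± 0.08, adjusted p = 0.000351). Clec7a, which encodes the fungal glucan receptor Dectin-1, fell to 56.7, 169.6, 45.2 and 136 CPM with dexamethasone, against 197, 678, 464 and 326 CPM with vehicle (-2.03 ± 0.44, adjusted p = 0.00223) and was highest in the libraries high in Arg1 within each group. The number that rose was 4 without dexamethasone library 4 or vehicle library 2, and 3 without the 4 libraries high in Arg1. The number that fell was 1 without dexamethasone library 2 or 4 or vehicle library 1 or 4, and 5 without those 4.

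Chemokine receptors and other G protein-coupled receptors fell in 10 of 29 and rose in 6, and 11 fell and 4 rose without the libraries high in Arg1. Ccr2, the CCL2 receptor of inflammatory monocytes, fell to 1.66, 1.48, 1.75 and 1.55 CPM with dexamethasone, against 3.87, 4.10, 4.67 and 4.11 CPM with vehicle (-1.38 ± 0.18, adjusted p = 3.71e-06). Ccr2 was low in both groups, which did not overlap. Gpr35 rose and averaged 7.84 ± 0.300 CPM with dexamethasone, against 2.47 ± 0.677 CPM with vehicle (SD, n = 4 each, 1.66 ± 0.19, adjusted p = 8.09e-07), and the UDP-glucose receptor gene P2ry14 rose too (0.88 ± 0.12, adjusted p = 8.71e-06).

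Receptors and bridging proteins for the uptake of dead cells rose in 13 of 31 tested and fell in 6, and in 12 and 5 without the libraries high in Arg1. Their summed level was 19250 to 21550 CPM with dexamethasone and 14680 to 15510 CPM with vehicle. Mertk, the receptor tyrosine kinase for apoptotic cells, held 364, 324, 367 and 377 CPM with dexamethasone, against 146, 134, 143 and 175 CPM with vehicle (1.26 ± 0.10, adjusted p = 2.25e-09). Stab1, a scavenger receptor that binds phosphatidylserine, held 5241, 4181, 5176 and 5010 CPM with dexamethasone, against 2177, 1774, 2052 and 2133 CPM with vehicle (1.27 ± 0.11, adjusted p = 9.39e-09). Both were even within groups and separate between them. The ligand gene Gas6, whose product bridges dead cells to MERTK, averaged 730.2 ± 71.6 CPM with dexamethasone, against 473 ± 52.3 CPM with vehicle (SD, n = 4 each, 0.63 ± 0.09, adjusted p = 8.15e-06). Thbs1, a matricellular protein that bridges dead cells to CD36, held 701, 568, 798 and 606 CPM with dexamethasone, against 135, 93.4, 113 and 159.8 CPM with vehicle (2.42 ± 0.40, adjusted p = 0.000173). Members that fell included Tgm2, transglutaminase 2 (-1.05 ± 0.13, adjusted p = 4.03e-06), and Cd36 itself, a receptor for thrombospondin and fatty acids (-0.81 ± 0.12, adjusted p = 3.42e-05).

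Complement and coagulation genes rose in 6 of 26 and fell in 3, and in 6 and 2 without the libraries high in Arg1. C1qb, a chain of the complement initiator C1q that also opsonises dead cells, averaged 1493 ± 98.3 CPM with dexamethasone, against 1007 ± 94.3 CPM with vehicle (SD, n = 4 each, 0.57 ± 0.09, adjusted p = 2.87e-05), and C1qc was at 0.43 ± 0.07, adjusted p = 5.54e-05. The thrombomodulin gene Thbd rose (0.70 ± 0.10, adjusted p = 1.78e-05) and the protein C receptor gene Procr fell (-0.66 ± 0.10, adjusted p = 2.88e-05). Among 22 genes of haem and iron handling, 5 rose and 5 fell, or 3 fell without vehicle library 2, and 5 rose and 4 fell without the libraries high in Arg1. Hp, haptoglobin, whose complexes with haemoglobin CD163 clears, held 17.6, 10.2, 13.7 and 10.9 CPM with dexamethasone, against 2.56, 1.19, 2.52 and 3.49 CPM with vehicle (2.40 ± 0.41, adjusted p = 0.000167). Hmox1, the haem oxygenase, averaged 671 ± 61.2 CPM with dexamethasone, against 447 ± 41.7 CPM with vehicle (SD, n = 4 each, 0.59 ± 0.13, adjusted p = 0.00171). The iron transporter gene Slc11a2 (-0.66 ± 0.10) and the haem exporter gene Flvcr1 (-0.38 ± 0.06) fell.

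The MS4A genes, which encode a family of membrane proteins, rose in 7 of 10 tested and fell in none, with and without the libraries high in Arg1, at a median log2 fold change of 1.76. Ms4a6b held 521, 424, 510.5 and 482 CPM with dexamethasone, against 95.8, 85.7, 84.2 and 108 CPM with vehicle (2.37 ± 0.11, adjusted p = 1.64e-13). The others were Ms4a6c (1.5 ± 0.06), Ms4a6d (1.06 ± 0.08), Ms4a4a (2.10 ± 0.20), Ms4a4b (2.54 ± 0.25), Ms4a4c (2.02 ± 0.31) and Ms4a8a (2.32 ± 0.44). The members share sequence, so how reads were divided between them is uncertain. Fc receptors and paired receptors rose in 5 of 30 and fell in 9, and in 5 and 11 without those libraries. Fcgrt, the neonatal Fc receptor, averaged 222 ± 27.8 CPM with dexamethasone, against 98.3 ± 10.8 CPM with vehicle (SD, n = 4 each, 1.18 ± 0.14, adjusted p = 7.82e-07). The activating Fc receptor gene Fcgr3 (0.67 ± 0.08), the lectin gene Cd33 (0.98 ± 0.12) and Trem1 (1.19 ± 0.17), an amplifier of inflammation, rose as well. The sialic acid receptor gene Siglecf fell to 1.15, 0.801, 0.927 and 1.24 CPM with dexamethasone, against 2.01, 5.86, 6.51 and 4.11 CPM with vehicle (-2.17 ± 0.28, adjusted p = 4.54e-06), and was at -1.48, adjusted p = 0.00176 without the libraries high in Arg1.

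**Figure D4:**
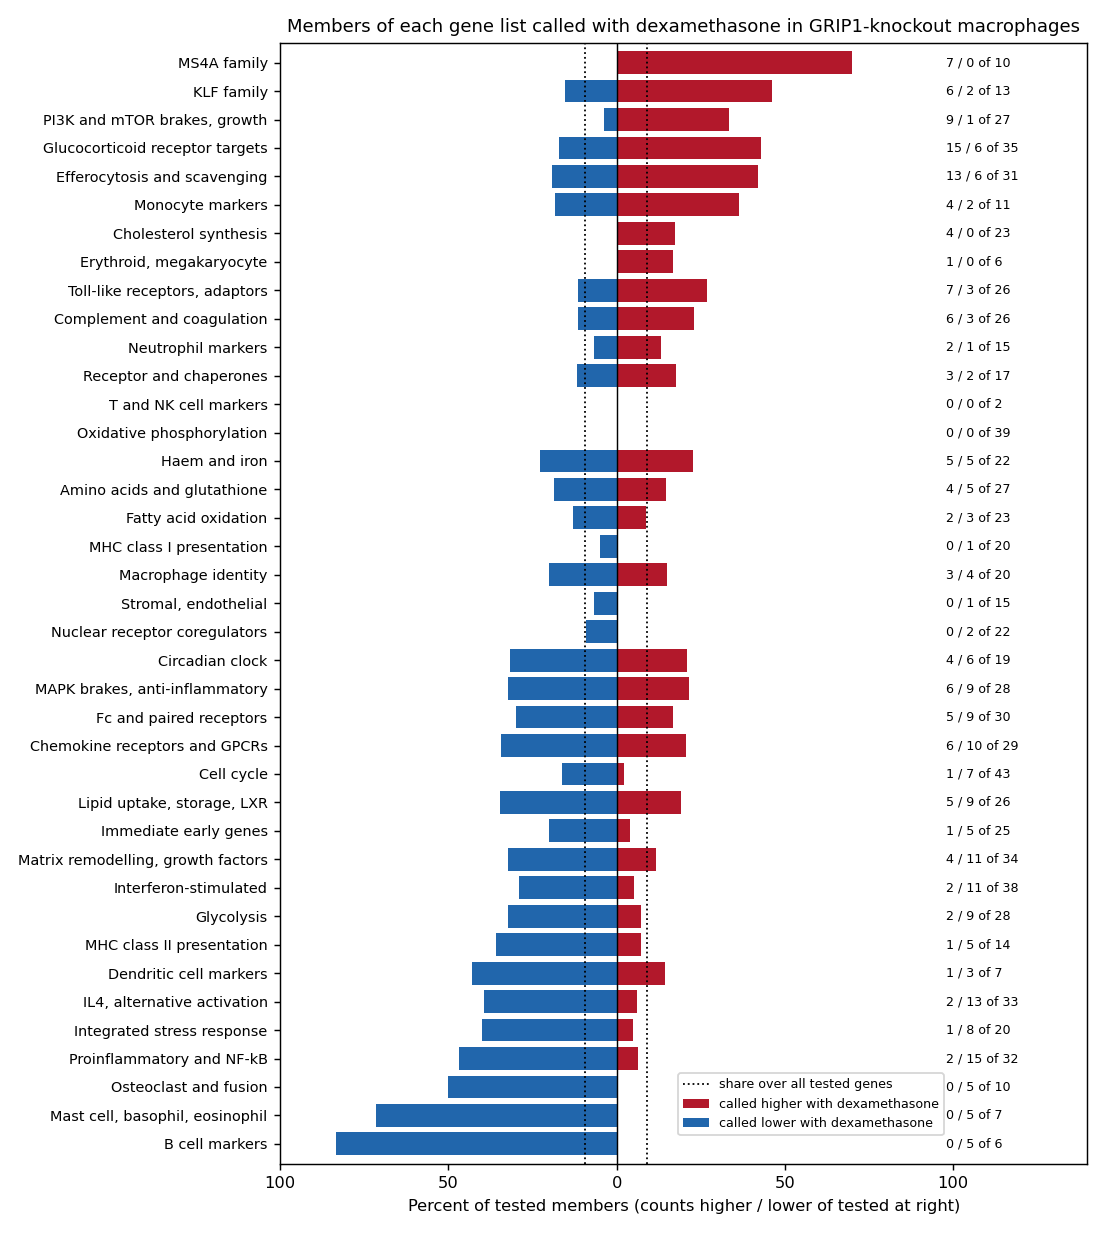
Share of the tested members of each of 39 gene lists called higher (red, to the right) or lower (blue, to the left) with dexamethasone in knockout cells, with the counts at right. Dotted lines mark the shares over all tested genes, 9.10% higher and 9.29% lower; the MS4A family has 7 of 10 members higher, and the B cell markers have 5 of 6 lower.

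Genes that restrain or carry PI3 kinase and mTOR signalling rose in 9 of 27 and fell in 1, and in 7 and 0 without the libraries high in Arg1. Beside Ddit4 and Pik3ip1, Deptor, whose product inhibits mTOR, held 61.4, 37.9, 55.7 and 59.6 CPM with dexamethasone, against 23.2, 20.3, 21.1 and 25.3 CPM with vehicle (1.26 ± 0.17, adjusted p = 1.16e-05). The regulatory subunit gene Pik3r1 (0.54 ± 0.08, adjusted p = 1.18e-05) and Inpp5d (0.41 ± 0.07, adjusted p = 0.000108), which encodes the phosphatase SHIP1, rose by less. Krüppel-like factor genes rose in 6 of 13 and fell in 2, or in 1 without dexamethasone library 4 and in 1 without the 4 libraries high in Arg1, where 5 rose. Klf9, a direct receptor target in several tissues, was at 66.9, 55.1, 59.7 and 64.5 CPM with dexamethasone, against 3.76, 6.88, 6.41 and 5.76 CPM with vehicle, and Klf13 averaged 260 ± 25.5 CPM with dexamethasone, against 153 ± 13.3 CPM with vehicle (SD, n = 4 each, 0.76 ± 0.09, adjusted p = 6.01e-07). Klf4, a factor of alternative activation, was at 29.2, 60.2, 32.3 and 42.5 CPM with dexamethasone, against 16.8, 49.1, 35.9 and 14.5 CPM with vehicle and was not called (0.50 ± 0.27, adjusted p = 0.222). It was called without the 4 libraries high in Arg1 (1.15, adjusted p = 1.34e-05) and without vehicle library 2 alone (0.85, adjusted p = 0.0161). Leaving out the 4 keeps dexamethasone library 4 (42.5 CPM), intermediate in Arg1, beside vehicle libraries 1 and 4 (16.8 and 14.5 CPM).

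Clock genes split by direction. Of 19 tested, 4 rose and 6 fell, and 3 rose and 5 fell without the libraries high in Arg1. Per1, a known direct receptor target, held 106, 106, 101 and 126 CPM with dexamethasone, against 26.6, 24.9, 27.3 and 26.7 CPM with vehicle (2.06 ± 0.09, adjusted p = 9.61e-14), while its paralogs Per2 (-1.02 ± 0.19) and Per3 (-0.89 ± 0.16) fell. The output factor genes Tef (-0.78 ± 0.11, adjusted p = 9.54e-06) and Dbp (-0.93 ± 0.15, adjusted p = 7e-05) fell too. Arntl, which encodes the activator BMAL1, rose and averaged 24.3 ± 2.09 CPM with dexamethasone, against 16.5 ± 1.41 CPM with vehicle (SD, n = 4 each, 0.55 ± 0.10, adjusted p = 0.000433).

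Genes of lipid handling fell in 9 of 26 and rose in 5, or in 3 without dexamethasone library 1 or 3 or vehicle library 3. The numbers were 9 that fell and 4 that rose without the 4 libraries high in Arg1. Lpl, the secreted lipoprotein lipase, fell to 493, 569.7, 404 and 498 CPM with dexamethasone, against 1884, 2363, 1783 and 1724 CPM with vehicle (-1.98 ± 0.12, adjusted p = 9.49e-12). Lipa, the lysosomal acid lipase, fell to 648, 563, 596 and 602 CPM with dexamethasone, against 1139, 1058, 973 and 1124 CPM with vehicle (-0.83 ± 0.05, adjusted p = 6.72e-11). Both lipases were even within groups and did not overlap between them. Pparg, a lipid-sensing nuclear receptor, fell and averaged 14.3 ± 2.81 CPM with dexamethasone, against 31.4 ± 6.20 CPM with vehicle (SD, n = 4 each, -1.13 ± 0.18, adjusted p = 7.76e-05). The apolipoprotein gene Apoe (0.67 ± 0.17, adjusted p = 0.00768) and the triglyceride lipase gene Pnpla2 (0.60 ± 0.10, adjusted p = 0.000112) rose, and the Apoe call was lost with only the compared groups in the fit (adjusted p = 0.0798).

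Of 39 genes of oxidative phosphorylation, none was called by edgeR, with log2 fold changes of -0.26 to 0.10. Of these, 2 had an unadjusted p under 0.05, DESeq2 called none, 1 fell without dexamethasone library 2, and none was called without the 4 libraries high in Arg1. Glycolysis and hypoxia genes fell in 9 of 28 and rose in 2, and in 4 and 1 without the libraries high in Arg1, with 1 rise also without dexamethasone library 1 or 3. Pdk1, a kinase that limits pyruvate entry to mitochondria, was at -0.27 ± 0.06, adjusted p = 0.00127, and the bifunctional phosphofructokinase gene Pfkfb4 was at -0.56 ± 0.10, adjusted p = 0.000204. Cholesterol synthesis genes rose in 4 of 23, each by at most 0.24 on the log2 scale, with 0 rises without dexamethasone library 2 or vehicle library 1, 1 without dexamethasone library 1, 3 or 4, and 2 without vehicle library 3 or the 4 libraries high in Arg1. Fatty acid oxidation genes rose in 2 of 23 and fell in 3, with 1 rise without dexamethasone library 1, 3 or 4 or any 1 of vehicle libraries 1, 2 and 3, and with 1 rise and no fall without the 4 libraries high in Arg1. Their counts are near the shares over all genes tested, of which 9.10% rose and 9.29% fell.

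Genes of amino acid transport, synthesis and glutathione rose in 4 of 27 and fell in 5, the same numbers without the libraries high in Arg1. Slc7a5, a transporter of large neutral amino acids, fell to 14.4, 27.7, 20.0 and 21.7 CPM with dexamethasone, against 44.4, 41.5, 53.2 and 38.2 CPM with vehicle (-1.08 ± 0.17, adjusted p = 6.46e-05). The glutathione peroxidase gene Gpx3 rose to 126, 67.8, 100.4 and 90.5 CPM with dexamethasone, against 35.3, 28.4, 26.1 and 37.2 CPM with vehicle (1.6 ± 0.14, adjusted p = 1.44e-08). Neither overlapped between groups. Genes of the integrated stress response, which ATF4 drives when amino acids are short, fell in 8 of 20, and in 7 without the libraries high in Arg1. Examples were Mthfd2 (-0.79 ± 0.12, adjusted p = 5.65e-05), a mitochondrial folate enzyme, Asns (-0.87 ± 0.16, adjusted p = 0.000362), asparagine synthetase, and Aldh18a1 (-0.70 ± 0.10, adjusted p = 2.87e-05), an enzyme of proline synthesis. Of this list 1 gene rose, Cebpg at 0.23 ± 0.08, and that call was lost without dexamethasone library 1, 3 or 4 or vehicle library 1, 2 or 4, with no filter on low counts (adjusted p = 0.0626) and with only the compared groups in the fit (adjusted p = 0.0569). Atf3, a stress and immediate early factor, fell to 82.7, 162, 77.2 and 112 CPM with dexamethasone, against 172, 302, 248 and 194 CPM with vehicle (-1.08 ± 0.21, adjusted p = 0.000893). Immediate early genes fell in 5 of 25 and rose in 1, with 3 falls without dexamethasone library 3 or vehicle library 1 and 2 rises without vehicle library 1 or 2, and with 4 falls and 2 rises without the 4 libraries high in Arg1.

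Cell cycle genes fell in 7 of 43 and rose in 1. The number that fell was 3 without dexamethasone library 1 or 3, 4 without vehicle library 1 or 3, 14 without dexamethasone library 2 and 5 without the 4 libraries high in Arg1, where none rose. Ccnd1, cyclin D1, fell to 183, 271, 196 and 196 CPM with dexamethasone, against 382, 491, 399 and 312 CPM with vehicle (-0.90 ± 0.14, adjusted p = 3.16e-05). Its groups did not overlap, and dexamethasone library 2 and vehicle library 2 were the highest of their groups. Matrix remodelling and growth factor genes fell in 11 of 34 and rose in 4, and in 10 and 4 without those 4 libraries. Pdgfb, a growth factor for mesenchymal cells, fell to 30.1, 28.0, 26.8 and 21.7 CPM with dexamethasone, against 97.0, 62.1, 67.0 and 66.1 CPM with vehicle (-1.46 ± 0.16, adjusted p = 3.64e-07). Igf1, insulin-like growth factor, was at 137, 322, 129.8 and 328 CPM with dexamethasone, against 452, 714, 673 and 548 CPM with vehicle (-1.38 ± 0.25, adjusted p = 0.000351). Igf1 was highest in dexamethasone libraries 2 and 4 and in vehicle libraries 2 and 3, and its groups did not overlap. The metalloproteinase gene Mmp19 rose (0.85 ± 0.09, adjusted p = 1.81e-07) and the tetraspanin gene Cd9 fell (-0.92 ± 0.13, adjusted p = 1.06e-05).

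Genes of the IL4 programme fell in 13 of 33 and rose in 2, at a median log2 fold change of -1.05. Without the 4 libraries high in Arg1, 8 fell and 5 rose, and 4 rose without vehicle library 2 alone. Il4ra, a subunit of the IL4 receptor, rose evenly, to 410.5, 462, 437 and 422 CPM with dexamethasone, against 226, 245, 235 and 245 CPM with vehicle (0.86 ± 0.08, adjusted p = 4.14e-08). Matk, a kinase that restrains Src family kinases, fell to 8.40, 12.2, 6.49 and 11.3 CPM with dexamethasone, against 12.9, 55.9, 45.1 and 22.7 CPM with vehicle (-1.83 ± 0.31, adjusted p = 0.000172), and was at -1.04, adjusted p = 0.00522 without the 4 libraries.

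Mgl2 was called over all 8 libraries (-2.95 ± 0.90, adjusted p = 0.0248) but not without the 4 (-1.50, adjusted p = 0.137). The call was also lost without dexamethasone library 1 (-2.60, adjusted p = 0.072), 3 (-2.53, adjusted p = 0.0768) or 4 (-3.0, adjusted p = 0.0593), and without vehicle library 2 (-2.36, adjusted p = 0.0874) or 3 (-2.60, adjusted p = 0.0763), while without dexamethasone library 2 it was at -4.13, adjusted p = 0.00933. Over all libraries it was lost with no filter on low counts (adjusted p = 0.0643) and with only the compared groups in the fit (adjusted p = 0.178). Arg1 was not called (-1.33 ± 1.12, adjusted p = 0.479), and its sign was the opposite without the 4 libraries (0.45, adjusted p = 0.812). Retnla was not called (-3.38 ± 1.23, adjusted p = 0.0663) and was at 3.19, adjusted p = 0.642 without the 4 libraries. In that comparison the vehicle libraries kept held no Retnla reads and the dexamethasone libraries next to none, so its sign and size carry little weight. Retnla was called without dexamethasone library 2 (-5.40, adjusted p = 0.0443), vehicle library 1 (-3.74, adjusted p = 0.0247) or vehicle library 4 (-3.80, adjusted p = 0.0163), and over all libraries with edgeR's newer quasi-likelihood (-3.36, adjusted p = 0.0359).

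The mannose receptor gene Mrc1 and the chitinase-like gene Chil3 had positive log2 fold changes. Mrc1 held 1510, 2768, 1537 and 2523 CPM with dexamethasone, against 1058, 1933, 1655 and 1247 CPM with vehicle and was not called (0.50 ± 0.18, adjusted p = 0.0541). It was called without dexamethasone library 1 (0.62, adjusted p = 0.0195) or 3 (0.62, adjusted p = 0.0202), without vehicle library 2 (0.66, adjusted p = 0.0152) and without the 4 libraries (0.68, adjusted p = 0.00783), and over all libraries with DESeq2 (0.50, adjusted p = 0.027). Chil3 held 33.1, 82.2, 26.6 and 54.6 CPM with dexamethasone, against 4.61, 51.8, 27.9 and 7.23 CPM with vehicle (1.11 ± 0.61, adjusted p = 0.245), and it was called without the 4 libraries (2.67, adjusted p = 0.0101). Both genes were higher in dexamethasone libraries 2 and 4 and in vehicle libraries 2 and 3 than in the others of their groups. Leaving out the 4 libraries keeps dexamethasone library 4 but neither of these vehicle libraries. MHC class II genes fell in 5 of 14 and rose in 1, with 2 falls without dexamethasone library 3, 3 without vehicle library 2, and 1 fall and no rise without the 4 libraries. Ciita, the master regulator of class II genes, fell to 1.06, 1.22, 0.784 and 1.96 CPM with dexamethasone, against 2.83, 3.77, 4.85 and 4.80 CPM with vehicle (-1.68 ± 0.27, adjusted p = 7.55e-05), and was at -1.57, adjusted p = 0.00429 without the 4. MHC class I genes fell in 1 of 20 and rose in none, with 2 falls without vehicle library 1 1 rise without vehicle library 4, and 1 fall and no rise without the 4.

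The defining macrophage genes were present in all 8 libraries. Of 20 tested, 3 rose and 4 fell, or 2 fell without dexamethasone library 4 or vehicle library 4, and 3 rose and 4 fell without the 4 libraries high in Arg1. Their summed level was 20690 to 23030 CPM with dexamethasone and 16750 to 21920 CPM with vehicle. The F4/80 gene Adgre1 fell and averaged 1830 ± 164 CPM with dexamethasone, against 2328 ± 213 CPM with vehicle (SD, n = 4 each, -0.35 ± 0.09, adjusted p = 0.00657), and the transcription factor gene Maf rose (0.67 ± 0.11, adjusted p = 0.000143). Lyz2, the locus that carries Cre, averaged 35.3 ± 12.4 CPM with dexamethasone, against 33.2 ± 6.31 CPM with vehicle (SD, n = 4 each) and was not called (0.08 ± 0.23, adjusted p = 0.87). Its sign was the opposite without dexamethasone library 1 (-0.15, adjusted p = 0.76) or vehicle library 2 (-0.03, adjusted p = 0.961). In bulk RNA, fewer cells of a type and less RNA per cell cannot be told apart.

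Most markers of other cell types were low. B cell markers fell in 5 of 6 tested, and in 4 without the 4 libraries high in Arg1, and their sum was 205 to 238 CPM with dexamethasone and 566 to 623 CPM with vehicle. Most of it was the adaptor gene Blnk (-0.68 ± 0.08, adjusted p = 2.11e-06) and Cd72, an inhibitory receptor, both of which macrophages also express. Cd72 stood at 107, 111, 82.6 and 110.2 CPM with dexamethasone, against 429, 379, 380.2 and 409.5 CPM with vehicle (-1.96 ± 0.10, adjusted p = 7.05e-13). Ighm was at 0.739, 0.590, 0.856 and 0.715 CPM with dexamethasone, against 7.01, 4.10, 4.81 and 4.36 CPM with vehicle, while Vpreb3, Igll1 and Cr2 of the same list were at 0 in all 8 libraries. The part of other cells in these results was not tested.

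Monocyte markers rose in 4 of 11 and fell in 2, and in 3 and 2 without the 4 libraries high in Arg1, with a sum of 198 to 297 CPM with dexamethasone and 46.4 to 104 CPM with vehicle, F13a1 being the most abundant with dexamethasone. Markers of mast cells, basophils and eosinophils fell in 5 of 7, or in 3 without any 1 of dexamethasone libraries 2, 3 and 4 and vehicle libraries 1 and 4. In all, 5 fell without the 4 libraries, and the list summed to 3.56 to 5.54 CPM with dexamethasone and 13.4 to 17.1 CPM with vehicle. Of this sum the chemokine receptor gene Ccr3 alone averaged 2.02 CPM with dexamethasone and 6.69 CPM with vehicle. Siglecf, with levels given above, is also on the list. The eosinophil peroxidase gene Epx and the mast cell protease gene Cma1 were at 0 in all 8 libraries. Neutrophil markers rose in 2 of 15 and fell in 1, and in 1 and 1 without the 4, and summed to 200.1 to 245 CPM with dexamethasone and 134 to 189 CPM with vehicle. The neutrophil counts are near the shares over all genes tested, of which 9.10% rose and 9.29% fell. Dendritic cell markers rose in 1 of 7, the cytokine receptor gene Flt3 at 1.06, 1.43, 0.642 and 1.55 CPM with dexamethasone, against 0.0387, 0.0410, 0.0998 and 0.156 CPM with vehicle (3.65 ± 0.46, adjusted p = 2.48e-06), and fell in 3, among them the integrin gene Itgax (-1.93 ± 0.34, adjusted p = 0.000313, and -1.44, adjusted p = 0.0101 without the libraries high in Arg1). Without those, 1 rose and 2 fell. Osteoclast and fusion genes fell in 5 of 10, or in 3 without dexamethasone library 1 or vehicle library 2 and in 2 without the 4 libraries, and Dcstamp, needed for cell fusion, was at -1.85 ± 0.28, adjusted p = 4e-05.

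Wild-type cells answered in the same direction at most genes called in both genotypes. In them 1996 genes were called (13.7%), 1117 higher (7.66%) and 879 lower (6.03%). Of 1408 genes called in both genotypes, 1405 had the same direction, 783 higher and 622 lower, which is 52.3% of the knockout calls and 70.4% of the wild-type calls. The knockout change was the larger at 534 of these 1405 genes, and the median absolute log2 fold change was 0.51 in knockout cells and 0.55 in wild-type cells. The groups hold 4 libraries each in knockout cells and 3 each in wild-type cells, so the numbers called do not rank the responses. Fkbp5 was at 3.51 ± 0.09 in knockout cells and 3.75 ± 0.10 in wild-type cells (difference -0.25 ± 0.12, adjusted p = 0.873). Jaml was at 7.35 ± 0.28 in knockout cells and 6.25 ± 0.33 in wild-type cells (difference 1.09 ± 0.54, adjusted p = 0.847).

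The test of the difference between genotypes, the knockout minus the wild-type log2 fold change, called 27 genes (0.185%), 7 of them above 0 (0.0480%) and 20 below 0 (0.137%), and 880 genes had an unadjusted p under 0.05. Of the 27, 18 were also called in knockout cells. The number called was 17 without knockout dexamethasone library 1, knockout vehicle library 2, wild-type dexamethasone library 1 or wild-type vehicle library 1, 16 without knockout vehicle library 3 or wild-type vehicle library 3, 18 without knockout dexamethasone library 4, and 15 without wild-type dexamethasone library 2. Without the 4 libraries high in Arg1 it was 12, of which 9 were among the 27. Wild-type dexamethasone libraries held 67.1, 0.993 and 2.07 CPM of Arg1, and library 1 is the high one.

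Lpl showed the clearest difference. Wild-type cells held 1165, 1171 and 1018 CPM with dexamethasone, against 1206, 1731 and 1536 CPM with vehicle, beside the knockout levels given above. Its log2 fold change was -1.98 ± 0.12 in knockout cells and -0.42 ± 0.13 in wild-type cells (difference -1.57 ± 0.17, adjusted p = 5.56e-05), and the difference was called with any 1 library left out and without the 4. Ms4a4a rose in both genotypes, by less in knockout cells, whose vehicle libraries were the higher. In knockout cells it held 633, 705, 589 and 697 CPM with dexamethasone, against 75.0, 226, 177 and 132 CPM with vehicle. In wild-type cells it held 491, 416 and 473 CPM with dexamethasone, against 26.1, 21.3 and 23.8 CPM with vehicle (difference -2.17 ± 0.30, adjusted p = 0.000862). That difference was not called with only the compared groups in the fit (adjusted p = 0.0694). Among knockout vehicle libraries, Ms4a4a was highest in 2 and 3, which are high in Arg1. Its knockout log2 fold change was 2.10 over all libraries and 2.62 without the 4. Knockout libraries given IL4 held 275.9, 318.5 and 252.1 CPM of Ms4a4a. Ccr3, a chemokine receptor of eosinophils, was at -1.75 ± 0.16 in knockout cells and -0.49 ± 0.16 in wild-type cells (difference -1.26 ± 0.22, adjusted p = 0.0115), and the difference was not called without the 4 libraries (-1.13, adjusted p = 0.142) or with only the compared groups in the fit (adjusted p = 0.068). Lipa fell in knockout cells (-0.83 ± 0.05) and was at -0.42 ± 0.06 in wild-type cells (difference -0.41 ± 0.08, adjusted p = 0.0355). The Lipa difference was not called in 11 of the 14 settings with 1 library left out, the exceptions being knockout dexamethasone library 1, knockout vehicle library 3 and wild-type vehicle library 2, nor with no filter on low counts (adjusted p = 0.147) or only the compared groups (adjusted p = 0.288).

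In the other direction, Ppfibp2, a scaffold protein of the liprin family, fell in wild-type cells and was not called in knockout cells (-0.20 ± 0.08, adjusted p = 0.0748). In knockout cells it held 55.4, 47.3, 50.3 and 55.7 CPM with dexamethasone, against 64.1, 56.0, 51.5 and 68.8 CPM with vehicle. In wild-type cells it held 42.0, 43.6 and 48 CPM with dexamethasone, against 95.9, 91.2 and 96.6 CPM with vehicle (difference 0.88 ± 0.12, adjusted p = 0.000829). Within knockout cells it was called without vehicle library 3 (-0.27, adjusted p = 0.0166) and without the 4 libraries (-0.31, adjusted p = 0.0105). Ggta1, a galactosyltransferase gene, was at 0.27 ± 0.04 in knockout cells and -0.23 ± 0.05 in wild-type cells (difference 0.49 ± 0.07, adjusted p = 0.000829), and at 0.43, adjusted p = 0.0566 without the 4. Zbtb16 was at 3.84 ± 0.21 in knockout cells and 5.40 ± 0.26 in wild-type cells (difference -1.56 ± 0.33, adjusted p = 0.0473), and that call was lost in 11 of the 14 settings with 1 library left out, the exceptions being knockout vehicle library 2, wild-type dexamethasone library 1 and wild-type vehicle library 3. It was also lost with no filter on low counts (adjusted p = 0.0584), with edgeR's newer quasi-likelihood (adjusted p = 0.113) and with only the compared groups in the fit (adjusted p = 0.17).

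**Figure D5:**
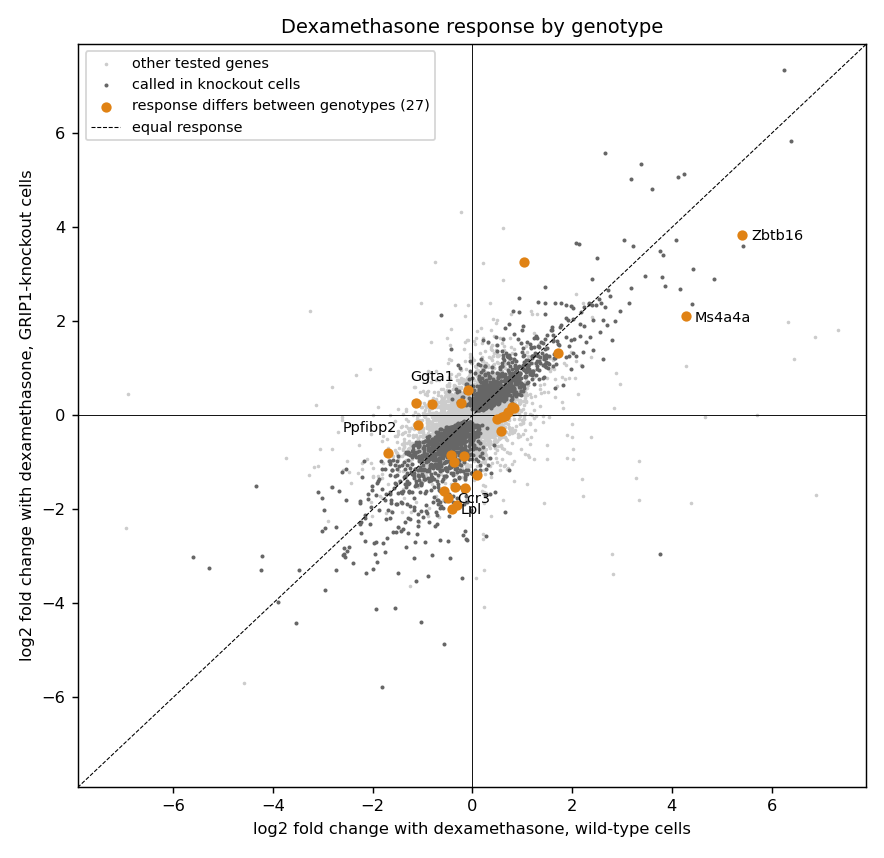
Log2 fold change with dexamethasone in knockout cells (vertical) against that in wild-type cells (horizontal) for each tested gene, with genes called in knockout cells in dark grey and the 27 whose response differed between genotypes in orange. The dashed line marks an equal response; Lpl lies below it (-1.98 in knockout cells, -0.42 in wild-type cells) and Ppfibp2 above it.

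Knockout cells were also given corticosterone, the natural glucocorticoid of mice, at 500 nM for 24 h. The 4 corticosterone libraries share their vehicle libraries with dexamethasone and the doses differ, so values are only set side by side. Fkbp5 was at 3.51 ± 0.09 with dexamethasone and 2.87 ± 0.09 with corticosterone, both over vehicle. Jaml was at 7.35 ± 0.28 with dexamethasone and 4.94 ± 0.28 with corticosterone. Tnip3 was at -2.89 ± 0.11 with dexamethasone and -1.80 ± 0.10 with corticosterone. Arg1 was at 0.114, 0.449, 0.392 and 0.150 CPM in the corticosterone libraries, so none of these was high.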

How the data were processed

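PolyA RNA of each library was sequenced as 50 bp pairs from a stranded kit, per the labels' protocols. The authors deposited whole-number counts of reads per gene; fastp 0.23.2, STAR 2.7.0, featureCounts, edgeR 3.38.4 and the build mm10 appear in the submitters' processing notes. Of 29872 genes, the 14589 with enough reads (edgeR filterByExpr, minimum count 10) were tested. All 27 libraries in their 8 labelled groups shared a quasi-likelihood fit in edgeR 4.0.16 (R 4.3.3, TMM scaling, no block), tested first on simulated counts. The contrasts were knockout dexamethasone minus vehicle, the same in wild-type cells, and the difference of these, each with Benjamini-Hochberg adjustment over all genes tested. CPM use TMM-scaled totals. No pair of libraries within a knockout group agreed within sampling noise, so none was merged with another as a duplicate; this does not show separate animals.

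The members and gene lists were chosen with earlier results of these data known, and so were the 4 libraries left out. Named genes are the 12 largest rises and 12 largest falls (non-overlapping groups, the higher averaging 5 CPM or more), up to 5 members of each list with the smallest adjusted p, 17 fixed genes, and the 6 largest differences between genotypes each way; not all are given values. Another 15 list members (among them Il1b, Tnf, Cxcl10, Thbs1, Hmox1 and Apoe) were chosen after their values were seen. Alternatives were RLE scaling, other filters, edgeR's newer quasi-likelihood, DESeq2 1.42.0, fewer groups, a replicate block and left-out libraries.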

Additional observations from a re-analysis of the deposited data

Results flagged for a closer look

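In 14 of 264 groups of 4 knockout libraries, over the genes given values above, 1 library lay apart from the other 3 by Dixon's ratio. That ratio sets the gap to the nearest library against the range of the group, so small differences in level can be flagged. Chance flags about 1 in 20 groups. With dexamethasone, library 2 was the high one for Ccnd1 (271 CPM), Ch25h (1.98 CPM) and Retnla (0.590 CPM). Library 3 was low for Cd72 (82.6 CPM) and high for Tnip3 (12 CPM), library 4 was high for P2ry14 (44.3 CPM), and library 1 was high for Slc11a2 (113 CPM). With vehicle, library 2 was high for Cd9 (518 CPM) and Il1rn (72.1 CPM) and low for Bcl6 (67.6 CPM) and Ncoa3 (196 CPM). Vehicle library 1 was high for Ggta1 (245 CPM) and Pdgfb (97.0 CPM) and low for P2ry14 (19.8 CPM).

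The dexamethasone response differed between knockout and wild-type cells, by the test of the difference itself, at 7 genes named above. The knockout minus wild-type log2 difference was -2.17 for Ms4a4a, -1.57 for Lpl, -1.56 for Zbtb16, -1.26 for Ccr3, -0.41 for Lipa, 0.49 for Ggta1 and 0.88 for Ppfibp2. With 1 library left out at a time, the highest adjusted p was 0.000459 for Lpl, 0.00512 for Ppfibp2, 0.00649 for Ms4a4a, 0.00743 for Ggta1, 0.0400 for Ccr3, 0.145 for Lipa and 0.237 for Zbtb16.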

How the results depend on the processing

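The number of genes called in knockout cells was 2679 with RLE scaling, 2898 with DESeq2, 2710 with edgeR's newer quasi-likelihood, 2586 with a minimum count of 50, 2088 with no filter, 2075 with only the 8 libraries in the fit, 2106 to 2805 with 1 library left out, and 2423 without both knockout libraries numbered 2. It was 1789 without the 4 libraries high in Arg1. The number of differences between genotypes, 27 in all, was 81 with DESeq2, 10 with only the 4 groups compared, 12 without the 4 libraries and 15 to 36 with 1 library left out. The cause of these shifts was not tested, though fewer libraries or groups leave fewer degrees of freedom.

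Same-numbered dexamethasone and vehicle libraries correlated at 0.268, 0.363, 0.005 and 0.191 in their deviations from the group means. Each dexamethasone library but 3 correlated best with its own number, though library 1 was almost as close to vehicle library 4 (0.256). The labels do not say what the numbers mark, so the main fit used no block, and whether they pair samples was not settled. With the replicate block 4056 genes were called in knockout cells, and 214 differences between genotypes. The block also called Ncoa2 (0.26, adjusted p = 0.0182), Nr3c1 (-0.15, adjusted p = 0.0268), Ppfibp2 (-0.20, adjusted p = 0.017) and Mrc1 (0.49, adjusted p = 0.0405) in knockout cells, none of which was called in the main fit.

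Of 132 genes given values, 125 kept their sign and side of the threshold with each knockout library left out. Many of them were chosen for large changes or small adjusted p in these same data, which favours stable calls. Over all 2684 called genes, 1677 (62.5%) were called every time. Signs reversed at 3 genes that were not called: Arg1 (0.45) and Retnla (3.19) without the 4 libraries, and Lyz2, at -0.15 to 0.24 with 1 library left out (-0.15 without dexamethasone library 1, -0.03 without vehicle library 2). Depth limits genes near 0 CPM, such as Retnla, more than abundant ones.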
